A study of Mus musculus with 6 samples.

Results

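The CA1 pyramidal layer spots are capture spots of a spatial transcriptome that were chosen by marker genes of the pyramidal cell bodies in field CA1 of the mouse hippocampus. Spot images were not used, so their position over this layer was not checked. In each of 6 coronal brain sections, the counts of Fibcd1, Spink8, Gpr161 and Mpped1 were expressed per 1000000 UMIs of the spot (CPM), divided by their mean over the section and averaged, and the top 1% of spots with at least 500 UMIs were taken. This gave 204 of 20336 spots, with 36 and 33 (P21), 29 and 33 (adult) and 37 and 36 (aged) in the sections of each age. The sections came from formalin-fixed, paraffin-embedded (FFPE) brains of untreated male C57BL/6J mice at P21, at 12 to 15 weeks (adult) and at 28 months (aged), with 2 biological replicates at each age. All 6 were read with 10x Genomics Visium probes, and the deposited tables list the same 19465 genes for each section, although the study's methods state a changed probe design for the aged libraries. P21 and adult sections were counted by Space Ranger 2.0.0 on first-version slides, whereas both aged sections were transferred by CytAssist to second-version slides and counted by Space Ranger 3.1.1, so in aged vs. adult the age cannot be told apart from the slide version and probe design. The 4 score genes chose the spots and were left out of every comparison.

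CA1 pyramidal neurons are the main excitatory output cells of the hippocampus proper. They receive input from CA3 through the Schaffer collaterals and from the entorhinal cortex, and their axons run to the subiculum and back to the cortex. The layer is known for synaptic plasticity that depends on glutamate receptors and calcium signalling, and it lies between the myelinated fibres of the alveus and the dendritic layers, where interneurons, astrocytes, microglia and oligodendrocytes are found. A Visium spot is wider than a cell body and takes up RNA from all of these.

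The CA1 spots formed a thin curved line in the P21 and adult sections and a compact patch in the aged sections, as the map of CA1 spots shows. The median number of other CA1 spots touching a CA1 spot on the 6-neighbour grid was 2.5 and 2 (P21), 2 and 2 (adult) and 4 and 4 (aged). In the aged sections 51.4% and 58.3% of CA1 spots touched at least 4 others, compared with 11.1% and 6.06% at P21 and 0 and 0 in adults. In aged section 2, 11 CA1 spots lay in the outermost columns at 1 edge of the array, as did 2 in aged section 1 and 1 in P21 section 2. Barcodes, which mark positions on the slide, were shared by 3364 spots of the aged sections and by 2612 to 2997 spots of each pair of P21 and adult sections, and none was shared between these slide versions.

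**Figure D1:**
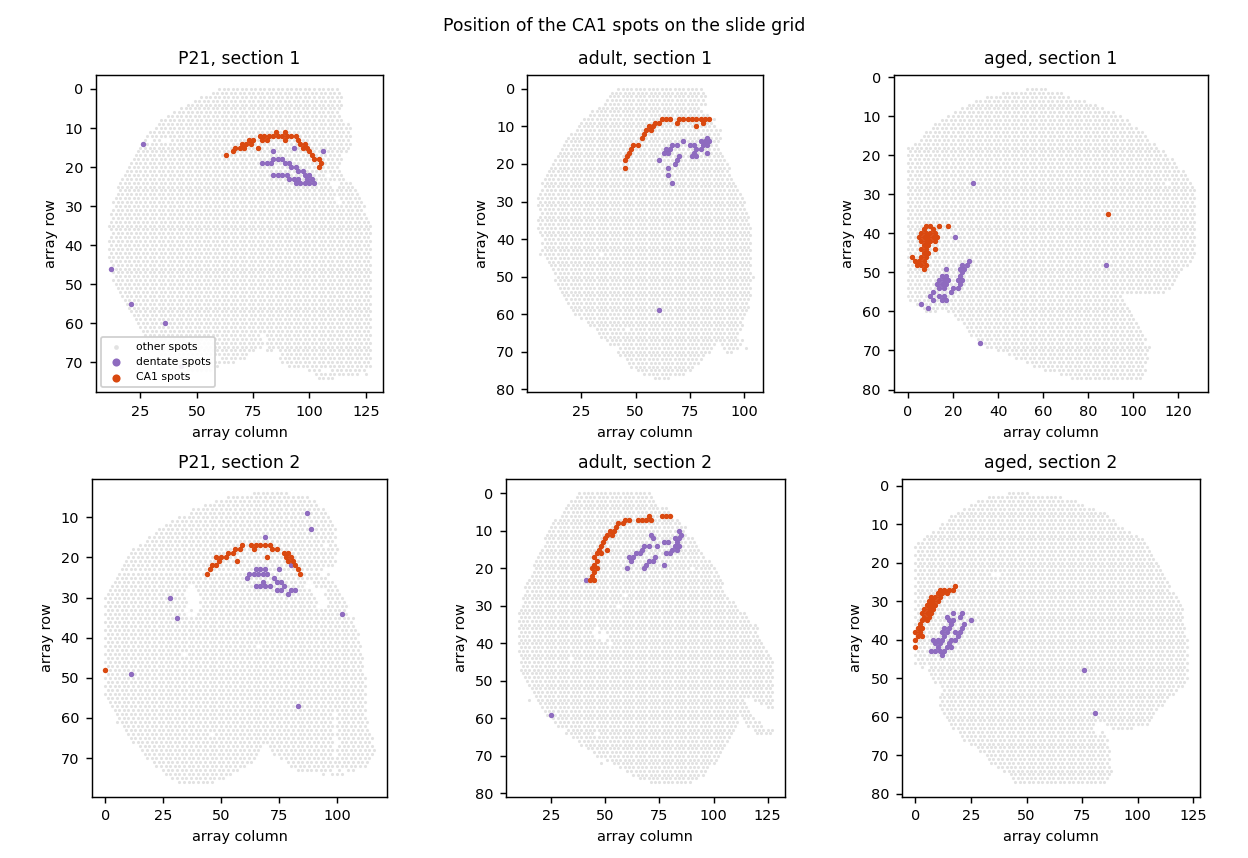
Position of the CA1 spots on the array of each section. The axes are array column and row (grid units), grey points are all spots with at least 500 UMIs, purple points are the dentate comparison spots, and orange points are the CA1 spots, which form a line in P21 and adult sections and a patch in aged sections.

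Summed over the CA1 spots, each section gave 1314875 and 615484 (P21), 901869 and 951600 (adult) and 1350861 and 2167060 (aged) UMIs. The median CA1 spot held 36021 and 20198 (P21), 33188 and 29071 (adult) and 29939 and 59513 (aged) UMIs. The medians over all spots of the same sections were 23543.5 and 12074.5, 16740 and 14603, and 19580 and 25535. CA1 spots were thus deeper than the section at large in all 6 sections, and P21 section 2 was the shallowest. The score has no gap at its threshold. The last spot inside and the first outside scored 8.17 and 7.89, and 10.57 and 10.22, in the P21 sections, 10.36 and 10.29, and 9.98 and 9.79, in the adult sections, and 9.87 and 9.61, and 11.83 and 11.81, in the aged sections.

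Genes outside the score bore out the label in part. Wfs1 (ENSMUSG00000039474, chr5:36966104-36989205, GRCm38), an endoplasmic reticulum protein that marks CA1 pyramidal cells, was measured at 879.9 and 999 CPM (P21), 576 and 528 CPM (adult) and 222 and 331 CPM (aged), compared with 85 to 113 CPM in the rest of the sections. The transcription factor gene Pou3f1 was at 150.2 to 229.5 CPM in CA1 spots and 15.3 to 28.6 CPM elsewhere. Dcn, which marks ventral CA1, was near 0 in CA1 spots, at 0 to 4.57 CPM. Ccn3 was higher in CA1 spots than in the rest at P21 and in adults but lower in the aged sections.

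Ranked by the lowest of the 6 section-wise log2 ratios of CA1 spots to the rest of the section (1 CPM added), the 10 genes that lead are Gm2115, Wnt2, Neurod6, Iqgap2, Pou3f1, Hpca, Wipf3, Lmo1, Sstr4 and Lct. The lowest, median and highest ratios were 3.02, 3.83 and 4.27 for Gm2115, 3.01, 3.21 and 3.44 for Wnt2, which encodes a secreted Wnt ligand, and 2.81, 3.06 and 3.40 for Neurod6, a transcription factor of excitatory neurons. Hpca encodes hippocalcin, a calcium sensor, and Sstr4 a somatostatin receptor. These ratios follow from the choice of spots and are given as a description. Of the 10, Wipf3, a regulator of actin, was the 1 whose level in CA1 spots rose in aged vs. adult (log2 fold change 1.06 ± 0.12, adjusted p = 9.43e-08), with 1256 and 1093 CPM against 602 and 525 CPM.

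P21 vs. adult asks how the layer differs between the end of the third postnatal week and adulthood. Of 10088 genes tested with edgeR's quasi-likelihood test over sections, 196 were higher and 78 lower at P21 at a Benjamini-Hochberg adjusted p below 0.05 and a fold change above 1.5, which is 2.72% of the genes tested (1.94% higher and 0.773% lower). Errors given with ± are standard errors of log2 fold changes, with 2 sections at each age. Leaving out a section leaves a single section at its age, so a call can be lost while its fold change stays similar. The number of calls rests on single sections. It was 64 without P21 section 1, 215 without P21 section 2, 175 without adult section 1, 88 without adult section 2 and 439 without either aged section, which enters through the shared estimate of spread. Each P21 gene named as called had both P21 sections on 1 side of both adult sections, a pattern found above the adult level in 23.9% and below it in 23.7% of all genes tested.

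Myelin and oligodendrocyte genes were higher at P21. Of 12 mature oligodendrocyte genes tested, 9 rose (among them Mbp, Mog, Mag, Mobp, Cnp, Cldn11, Opalin and Mal) and 1 fell (Car2), with a median log2 fold change of 1.51 compared with 0.00 over all genes tested. Mbp, which encodes myelin basic protein, was at 4122 and 3127 CPM (P21), 1438 and 1283 CPM (adult) and 809 and 790.5 CPM (aged) (log2 fold change 1.42 ± 0.11, adjusted p = 5.99e-11). Its levels were ordered P21, adult, aged with no overlap between ages. Mag, an adhesion molecule of the inner myelin layer, was at 415 and 296 CPM at P21 against 110.3 and 91.9 CPM in adults (log2 fold change 1.85 ± 0.16, adjusted p = 6.62e-10). Cldn11, a tight junction protein of myelin, was at 396 and 236 CPM against 83.8 and 51.2 CPM (log2 fold change 2.28 ± 0.20, adjusted p = 7.05e-10). Car2, a carbonic anhydrase of oligodendrocytes, went the other way, at 143 and 135 CPM at P21 against 293 and 258 CPM in adults (log2 fold change −0.97 ± 0.14, adjusted p = 2.55e-05). The summed level of the 12 genes was 11800 and 8755 CPM (P21), 4048 and 3494 CPM (adult) and 2335 and 2202 CPM (aged), with Mbp the most abundant, and fewer oligodendrocytes and less RNA per cell cannot be told apart in a spot. Leaving out any section kept 8 or 9 of the 9 calls. The call of Opalin was lost without P21 section 1 (0.64, adjusted p = 0.503), P21 section 2 or adult section 2.

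Genes of earlier oligodendrocyte stages were also higher at P21. Of 9 genes of newly formed oligodendrocytes tested, 5 rose (Enpp6, Tmem163, Tspan2, Gpr17 and Rras2), with a median log2 fold change of 1.51, and of 7 precursor genes 3 rose (Olig1, Sox10 and Lhfpl3). Tspan2, a tetraspanin of myelinating cells, was at 332 and 234 CPM at P21 against 100.4 and 79.4 CPM in adults (log2 fold change 1.69 ± 0.17, adjusted p = 1.89e-08). Gpr17, a receptor of cells committed to differentiate, was at 42.6 and 29.7 CPM against 12.1 and 6.27 CPM (log2 fold change 2.04 ± 0.39, adjusted p = 0.00153), and Olig1, a transcription factor of the lineage, was at 161 and 89.2 CPM against 57.4 and 52.2 CPM (log2 fold change 1.28 ± 0.22, adjusted p = 2.60e-04). Gal3st1, which makes the myelin lipid sulfatide, was at 38.1 and 31.4 CPM against 7.72 and 3.13 CPM (log2 fold change 2.71 ± 0.44, adjusted p = 1.71e-04). Several of these calls depended on section. Without P21 section 1 the calls of Enpp6 (log2 fold change 1.96), Gpr17 (1.70), Tmem163 (1.28), Olig1 (0.71), Lhfpl3 (0.87) and Gal3st1 (2.53) were lost. That of Sox10 was lost without adult section 2 (1.60).

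Cholesterol synthesis genes rose together in part. The pathway builds cholesterol from acetyl-CoA, and cholesterol is a main lipid of myelin and of synaptic membranes. Of 18 genes tested, 6 rose at P21 (among them Hmgcs1, Sqle, Cyp51, Msmo1 and Insig1), none fell, and the median log2 fold change was 0.76. Hmgcs1 (chr13:119690379-119708260), which makes HMG-CoA, was at 263 and 253 CPM (P21), 127 and 117 CPM (adult) and 90.6 and 119 CPM (aged) (log2 fold change 1.09 ± 0.15, adjusted p = 1.49e-05). Sqle, squalene epoxidase, was at 107 and 111 CPM against 54 and 51.2 CPM (log2 fold change 1.04 ± 0.19, adjusted p = 6.32e-04). The summed level of the list was 1390 and 1362 CPM (P21), 876 and 853 CPM (adult) and 799.8 and 758 CPM (aged). The P21 sections lay above the adult sections for all 6 genes, and the rest of the sections showed a like difference for Hmgcs1, with 364 and 412 CPM at P21 and 179.8 and 181 CPM in adults. The count was 2 without P21 section 1 and 3 without either adult section. The adjusted p without P21 section 1 was 0.306 for Cyp51, 0.0744 for Msmo1 and 0.594 for Insig1. Stard4, a carrier of cholesterol between membranes, was at 19.8 and 14.9 CPM against 2.21 and 4.18 CPM (log2 fold change 2.45 ± 0.60, adjusted p = 0.0153), and its adjusted p was 0.412 without P21 section 1.

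Transcription of this pathway is known to be driven by sterol regulatory element binding proteins, which act with NF-Y at CCAAT boxes. RefSeq promoter windows (GRCm38.p6, 250 bases before the start) were available for 4 of the 6 called genes. The letters TCACNCCAC of a sterol regulatory element were found, on either strand, in the window of 1 of the 4 (Hmgcs1) and in 1.05% of 32851 promoter windows, and CCAAT was found in 4 of 4 and in 33.8%. The windows of Hmgcs1 (chr13:119690101-119690350, plus strand) and Msmo1 (chr8:64733579-64733828, minus strand) are shown because the former holds both motifs and the latter the CCAAT box alone, with the matched letters of either strand in capitals. A match is a description of these windows and no evidence of binding.
Hmgcs1: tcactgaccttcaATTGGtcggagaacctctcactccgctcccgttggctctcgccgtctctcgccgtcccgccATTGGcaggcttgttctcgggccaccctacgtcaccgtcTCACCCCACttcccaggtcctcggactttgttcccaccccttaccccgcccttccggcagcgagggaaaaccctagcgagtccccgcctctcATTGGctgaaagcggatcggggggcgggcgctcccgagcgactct
Msmo1: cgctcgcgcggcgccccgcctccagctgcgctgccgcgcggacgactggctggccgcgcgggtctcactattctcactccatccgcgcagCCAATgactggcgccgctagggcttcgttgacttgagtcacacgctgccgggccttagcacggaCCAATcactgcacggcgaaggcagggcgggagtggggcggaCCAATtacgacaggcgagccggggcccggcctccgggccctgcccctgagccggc

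Neuronal genes that differed at P21 included growth and activity-related genes. Of 17 immature neuron genes tested, 5 rose (Marcksl1, Nrep, Nnat, Tubb2b and Tubb3), with a median log2 fold change of 0.57. Marcksl1 (chr4:129513581-129515985), an actin-binding protein of growing neurites, was at 196 and 198 CPM (P21), 34.2 and 29.2 CPM (adult) and 13.3 and 26.8 CPM (aged) (log2 fold change 2.63 ± 0.21, adjusted p = 1.37e-10). Nptx2, a secreted pentraxin that gathers AMPA receptors at excitatory synapses, was at 98.2 and 112 CPM (P21), 22.1 and 18.8 CPM (adult) and 25 and 12.4 CPM (aged) (log2 fold change 2.34 ± 0.26, adjusted p = 1.39e-07). Both genes were higher in each P21 section than in any other section. Wfs1 was higher at P21 (log2 fold change 0.76 ± 0.13, adjusted p = 2.73e-04), and Man1a, a Golgi mannosidase enriched in CA1, was lower, at 164 and 185 CPM at P21 against 291 and 292 CPM in adults (log2 fold change −0.76 ± 0.15, adjusted p = 0.00152). Pcp4, a calmodulin-binding protein that is strong in CA2, was at 484 and 408 CPM against 262 and 187 CPM (log2 fold change 1.01 ± 0.19, adjusted p = 9.07e-04), and Calb2, which encodes calretinin, was at 52.5 and 39.6 CPM against 7.72 and 16.7 CPM (log2 fold change 1.95 ± 0.34, adjusted p = 4.00e-04). Ror1, a receptor for Wnt5a, was lower, at 9.89 and 4.95 CPM against 36.4 and 29.2 CPM (log2 fold change −1.97 ± 0.39, adjusted p = 0.00234). Without P21 section 1 the calls of Man1a (−0.65, adjusted p = 0.143), Pcp4 (0.87, adjusted p = 0.087) and Calb2 (1.68, adjusted p = 0.126) were lost, as was that of Nrep (adjusted p = 0.155), Nnat (0.153), Tubb2b (0.286) and Tubb3 (0.102). With the top 2% of spots Calb2 was no longer called (0.62). Leaving out adult section 2 ended the calls of Pcp4, Nrep, Tubb2b and Tubb3 too.

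Synapse and signalling lists gave few calls at P21. Besides Nptx2, the 1 call among AMPA receptor and auxiliary genes, which was kept whichever section was left out, they were higher levels of Camk4, a calcium-dependent kinase of the nucleus (log2 fold change 0.67 ± 0.17, adjusted p = 0.0238), Shank3, a scaffold of the postsynaptic density (log2 fold change 0.70 ± 0.15, adjusted p = 0.00322), Rims1, a protein of the release site (log2 fold change 0.61 ± 0.15, adjusted p = 0.0138), Slc12a2, the chloride importer NKCC1 (log2 fold change 1.27 ± 0.33, adjusted p = 0.0198), and Sema5a, a guidance cue (log2 fold change 2.10 ± 0.42, adjusted p = 0.00234), and a lower level of Gabrb1, a GABA-A receptor subunit (log2 fold change −0.60 ± 0.17, adjusted p = 0.0398). Among 16 immediate early genes, Jun rose (log2 fold change 1.18 ± 0.30, adjusted p = 0.0177) and Egr1 fell (log2 fold change −0.84 ± 0.18, adjusted p = 0.00582). Apart from Nptx2, none of these calls held without P21 section 1, with adjusted p of 0.189, 0.316, 0.227, 0.8, 0.277, 0.278, 0.338 and 0.416 in the order named. No gene was called among 6 NMDA receptor subunits, 24 potassium channel genes, 9 sodium channel genes, 15 calcium channel genes, 20 splicing factors or 21 respiratory chain genes tested, with median log2 fold changes of 0.03, −0.03, 0.00, 0.17, −0.11 and −0.04.

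**Figure D2:**
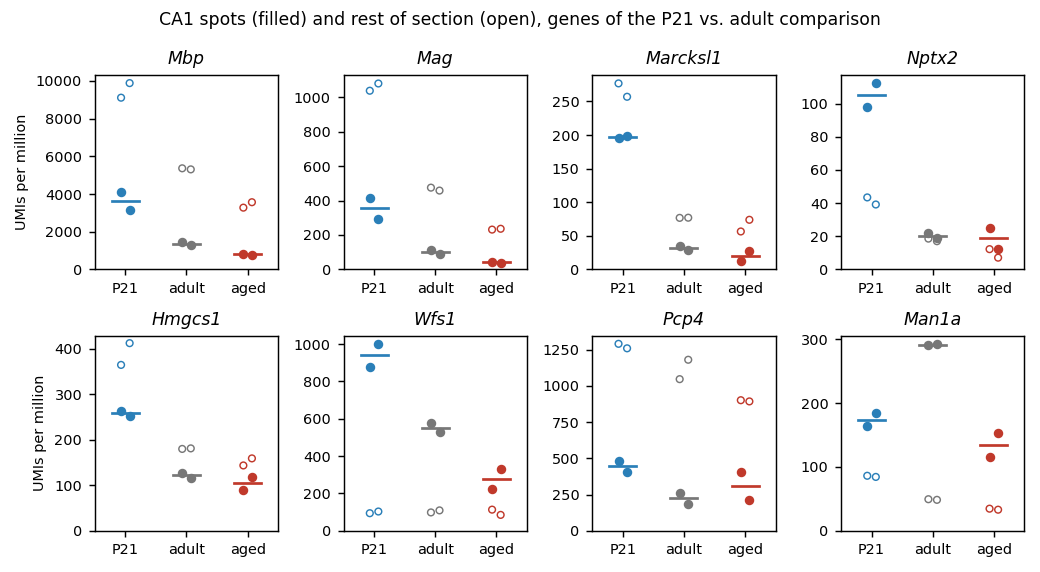
Level of 8 genes in CPM (vertical axis, from 0) by age (horizontal axis). Filled points are the CA1 spots of each section with a line at the mean of 2, open points are the rest of the same section, and Marcksl1 and Nptx2 are high in both P21 sections alone while Mbp and Mag fall from P21 to aged in both areas.

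The 10 genes with the largest rise at P21 were Hbb-bt, Hbb-bs, Hba-a2, Pmch, Mgp, Gal3st1, Marcksl1, Enpp6, Hhip and Stard4, and the first 4 are known from blood and the hypothalamus and not from CA1 neurons. Hbb-bs, which encodes a beta chain of haemoglobin, was at 776 and 419 CPM at P21 against 51.9 and 44.9 CPM in adults (log2 fold change 3.67 ± 0.34, adjusted p = 3.33e-09), and the rest of the sections was higher still, with 1531 and 903 CPM at P21 and 213 and 109.5 CPM in adults. In adult section 2, 55.8% of the Hbb-bs UMIs of the CA1 spots lay in 1 spot. Hba-a2, an alpha chain, was at 378 and 173 CPM against 30.9 and 19.9 CPM (log2 fold change 3.52 ± 0.36, adjusted p = 2.78e-08). Globin copies are near identical, so reads may be split between them. Hbb-bt had 38 and 9 UMIs at P21 and 2 and 1 in adults, a ratio of 15.04 with a 95% counting interval of 4.84 to 75.6. Ttr, the transport protein made by the choroid plexus, was at 652 and 322 CPM at P21 against 204 and 109 CPM in adults (log2 fold change 1.69 ± 0.23, adjusted p = 7.05e-06), with 2420 and 2311 CPM at P21 and 3249 and 1501 CPM in adults in the rest, and Pmch, a peptide of lateral hypothalamic neurons, was at 99 and 39.6 CPM against 2.21 and 14.6 CPM (log2 fold change 3.14 ± 0.42, adjusted p = 5.55e-06), with 711 and 515 CPM at P21 and 29.4 and 416 CPM in adults. Of 4 erythrocyte genes tested 3 rose, and of 3 choroid plexus genes tested 2 rose (Ttr and Enpp2), while the plexus genes Kcne2, Otx2 and Aqp1 were at or near 0 in CA1 spots (0 to 1.65 CPM, 0 to 0.761 CPM and 0 to 1.65 CPM). The summed choroid plexus list stood at 850.2 and 485 CPM (P21), 352 and 234 CPM (adult) and 138 and 146 CPM (aged). Mgp, a matrix protein of vessels, was at 29.7 and 9.91 CPM against 3.31 and 2.09 CPM (log2 fold change 3.03 ± 0.62, adjusted p = 0.00279), and Hhip, an inhibitor of hedgehog signalling, at 12.9 and 11.6 CPM against 3.31 and 1.04 CPM (log2 fold change 2.48 ± 0.72, adjusted p = 0.0474). The part of RNA from blood, choroid plexus or hypothalamus in the other results was not tested. Hbb-bs, Hba-a2 and Ttr stayed called whichever section was left out, whereas the adjusted p was 0.284 for Hbb-bt and 0.127 for Pmch without P21 section 1, and 0.0947 for Mgp and 0.481 for Hhip without adult section 2.

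Of the 10 genes with the largest fall at P21, Il33 led. Il33, a cytokine of glia, was at 6.09 and 1.65 CPM at P21 against 36.4 and 32.4 CPM in adults (log2 fold change −2.85 ± 0.43, adjusted p = 5.48e-05), with 14.5 and 14.9 CPM at P21 and 132 and 130.5 CPM in adults in the rest. C4b, a complement component with a near-identical copy C4a, was at 5.33 and 0 CPM against 15.4 and 17.8 CPM (log2 fold change −2.16 ± 0.54, adjusted p = 0.0177). The others were Col11a1, a fibrillar collagen (log2 fold change −2.13 ± 0.43, adjusted p = 0.00279), Ror1, Tmem255a, Zfhx4, Kctd21, Tle2, Mettl7a1 and Ndst3, the last 6 with log2 fold changes from −1.58 ± 0.42 for Tmem255a to −1.28 ± 0.27 for Ndst3. Il33 and Ror1 stayed called whichever section was left out. Without P21 section 1 or adult section 2 the calls of Tmem255a, Zfhx4, Kctd21, Tle2, Mettl7a1 and Ndst3 were lost (without P21 section 1, adjusted p = 0.418, 0.0783, 0.371, 0.287, 0.205 and 0.261). That of C4b was lost without P21 section 2 (−1.63, adjusted p = 0.101) or adult section 2, and that of Col11a1 without P21 section 1 (−1.85, adjusted p = 0.208) or adult section 1.

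Other genes higher at P21, most of them known from glia or vessels, were Cd9, a tetraspanin (log2 fold change 1.49 ± 0.33, adjusted p = 0.00671), Apoe, the lipid carrier made by astrocytes (log2 fold change 0.63 ± 0.14, adjusted p = 0.00908), Agt, angiotensinogen of astrocytes (log2 fold change 1.64 ± 0.36, adjusted p = 0.00624), Slco1a4, a transporter of brain endothelium (log2 fold change 1.16 ± 0.32, adjusted p = 0.0383), Enpp2, autotaxin (log2 fold change 0.60 ± 0.17, adjusted p = 0.0403), Hspa5, a chaperone of the endoplasmic reticulum (log2 fold change 0.63 ± 0.15, adjusted p = 0.0108), and Id1, an inhibitor of differentiation (log2 fold change 2.24 ± 0.56, adjusted p = 0.0177). Serpina3n, a protease inhibitor of reactive glia, was lower (log2 fold change −0.89 ± 0.25, adjusted p = 0.0352). Without P21 section 1 the adjusted p was 0.143 for Cd9, 0.549 for Apoe, 0.286 for Agt, 0.371 for Slco1a4, 0.522 for Enpp2, 0.284 for Id1 and 0.248 for Serpina3n. That of Hspa5 was 0.119 without P21 section 2 and 0.227 without adult section 1.

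Aged vs. adult asks how the layer differs at 28 months. Of 10081 genes tested, 489 were higher and 351 lower in the aged CA1 spots, which is 8.33% of the genes tested (4.85% higher and 3.48% lower). The count was 468 without adult section 1, 373 without adult section 2, 889 without aged section 1 and 1009 without aged section 2. Both aged sections lay above both adult sections in 27.5% of all genes tested and below both in 27.2%, and the same held for every aged gene named as called apart from Bst2.

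Immediate early genes rose in aged CA1 spots. These genes are switched on within minutes by synaptic activity and calcium entry and encode mostly transcription factors. Of 17 tested, 10 rose in aged CA1 spots (Arc, Fos, Fosb, Egr1, Egr2, Egr3, Egr4, Nr4a1, Nr4a2 and Dusp1), none fell, and the median log2 fold change was 0.92. Egr1, a zinc finger factor, was at 108 and 165 CPM (P21), 266 and 202 CPM (adult) and 1053 and 1496 CPM (aged) (log2 fold change 2.46 ± 0.15, adjusted p = 2.62e-13). It was detected in 97.3% and 100% of the aged CA1 spots, and the median spot held 986 and 1390 CPM compared with 232 and 189 CPM in adults, so the rise was not confined to a few spots. Arc (chr15:74669083-74672570), which regulates AMPA receptor uptake at dendrites, was at 164 and 158 CPM (P21), 245 and 150.4 CPM (adult) and 557 and 584 CPM (aged) (log2 fold change 1.54 ± 0.14, adjusted p = 3.78e-09). Nr4a2, an orphan nuclear receptor, was at 120 and 156 CPM in the aged sections against 39.7 and 25.1 CPM in the adult sections (log2 fold change 2.12 ± 0.21, adjusted p = 1.24e-08). Fos was at 25 and 30.4 CPM against 11 and 2.09 CPM (log2 fold change 2.11 ± 0.43, adjusted p = 0.0011) and Egr3 at 99.4 and 172 CPM against 70.6 and 58.5 CPM (log2 fold change 1.11 ± 0.20, adjusted p = 2.62e-04). Fosl2 and Sik1, a kinase that is induced by cAMP, were among the 10 genes with the largest rise, at 33.9 and 38.3 CPM against 9.93 and 2.09 CPM (log2 fold change 2.61 ± 0.40, adjusted p = 2.26e-05) and 17.7 and 22.6 CPM against 4.41 and 2.09 CPM (log2 fold change 2.64 ± 0.50, adjusted p = 5.32e-04). The summed level of the list was 1300 and 1431 CPM (P21), 1590 and 1272 CPM (adult) and 2983 and 3748 CPM (aged).

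Egr1 and Arc were also higher in aged sections outside CA1. In the rest of the sections Egr1 was at 702 and 649 CPM in the aged sections and 141 and 91.5 CPM in the adult sections, and the change in CA1 spots minus that in the rest was −0.07 ± 0.12, adjusted p = 0.864. Arc was at 358 and 294 CPM in the aged sections and 128 and 70.6 CPM in the adult sections there, with a difference of −0.14 ± 0.13, adjusted p = 0.695. Without adult section 2, 4 of the 10 calls remained, and those of Fos (1.34, adjusted p = 0.0984), Fosb (1.91, adjusted p = 0.0569), Egr2 (3.25, adjusted p = 0.0796), Egr4 (0.70, adjusted p = 0.0792), Nr4a1 (0.43, adjusted p = 0.216) and Dusp1 (0.81, adjusted p = 0.298) were lost, those of Egr2 and Dusp1 also without adult section 1. Adult section 2 was the lower of the adult sections for Arc, Fos, Nr4a1 and Nr4a2.

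The transcription of many immediate early genes is known to be driven by CREB at cAMP response elements. Promoter windows were available for 7 of the 10 called genes (Dusp1, Egr2, Egr4, Fos, Fosb, Nr4a1 and Nr4a2). The core letters TGACG were found on either strand in a window of all 7 and in 17.8% of 32851 promoter windows, and the full palindrome TGACGTCA, which contains the core, in 1 of the 7 (Dusp1) and in 1.55%. A gene was counted where any of its windows matched, and Egr2 had several, whereas the percentages are shares of single windows. The windows of Fos (chr12:85473640-85473889, plus strand), Nr4a1 (chr15:101266596-101266845, plus strand), Nr4a2 (chr2:57124004-57124253, minus strand) and Dusp1 (chr17:26508473-26508722, minus strand) are shown as examples of few and many cores and of the palindrome, with cores of either strand in capitals.
Fos: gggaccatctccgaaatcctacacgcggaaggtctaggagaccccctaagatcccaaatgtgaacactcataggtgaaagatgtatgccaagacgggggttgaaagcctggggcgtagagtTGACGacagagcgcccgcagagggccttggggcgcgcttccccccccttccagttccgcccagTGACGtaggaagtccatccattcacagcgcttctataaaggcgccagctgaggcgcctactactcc
Nr4a1: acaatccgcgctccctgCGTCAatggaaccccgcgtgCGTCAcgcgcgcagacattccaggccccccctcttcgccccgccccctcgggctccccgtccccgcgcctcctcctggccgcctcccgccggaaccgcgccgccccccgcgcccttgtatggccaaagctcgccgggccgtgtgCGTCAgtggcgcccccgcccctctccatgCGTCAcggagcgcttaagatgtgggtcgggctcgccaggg
Nr4a2: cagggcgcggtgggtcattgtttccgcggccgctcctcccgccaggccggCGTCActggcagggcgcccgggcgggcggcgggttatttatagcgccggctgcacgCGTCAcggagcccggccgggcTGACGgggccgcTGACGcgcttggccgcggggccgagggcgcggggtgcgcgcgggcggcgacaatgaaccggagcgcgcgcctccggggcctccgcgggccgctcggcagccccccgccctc
Dusp1: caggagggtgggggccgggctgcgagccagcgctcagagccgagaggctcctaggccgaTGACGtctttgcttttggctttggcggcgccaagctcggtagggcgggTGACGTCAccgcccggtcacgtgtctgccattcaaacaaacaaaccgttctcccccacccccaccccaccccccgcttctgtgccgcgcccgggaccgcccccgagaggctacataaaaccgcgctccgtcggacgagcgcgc

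Genes that mark CA1 fell in part. Of 10 CA1 field genes outside the score, 4 fell (among them Wfs1, Man1a and Ccn3) and 2 rose (Zbtb20 and Nr4a1, which is also counted among the immediate early genes), with a median log2 fold change of −0.38. Wfs1 fell by 0.98 on the log2 scale (log2 fold change −0.98 ± 0.13, adjusted p = 4.56e-06), while the rest of the sections stood at 113 and 85 CPM in the aged sections and 98.3 and 109 CPM in the adult sections. The fall was not confined to CA1 spots. In the CA3 comparison spots Wfs1 was at 19.3 and 29.6 CPM (aged) and 51.9 and 65.2 CPM (adult). In the dentate comparison spots it was at 21.6 and 19.7 CPM (aged) and 37.8 and 22.6 CPM (adult). Ccn3, a secreted matrix-associated protein, was at 188 and 182 CPM (P21), 157 and 203 CPM (adult) and 35.4 and 55.4 CPM (aged) (log2 fold change −1.94 ± 0.18, adjusted p = 3.78e-09). Man1a was at 116 and 153 CPM in the aged sections against 291 and 292 CPM in the adult sections (log2 fold change −1.10 ± 0.14, adjusted p = 1.17e-06). Zbtb20, a repressor needed for CA1 identity in development, was at 323 and 312 CPM against 233 and 182 CPM (log2 fold change 0.62 ± 0.13, adjusted p = 0.0015). Without adult section 2 the calls of Zbtb20 (0.44, adjusted p = 0.158) and Nr4a1 (0.43, adjusted p = 0.216) were lost. With spots chosen by Gpr161 and Mpped1 alone, the log2 fold change of Wfs1 was −0.51, below the fold threshold.

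Genes of the neighbouring field CA2 rose in the aged spots. Of 8 CA2 genes tested, 6 rose (Rgs14, Amigo2, Map3k15, Cacng5, Necab2 and Ntf3), with a median log2 fold change of 1.62 and a summed level of 1127 and 1025 CPM (P21), 993 and 760.4 CPM (adult) and 1595 and 1171 CPM (aged). Amigo2, an adhesion molecule that marks CA2, was at 70.0 and 64.4 CPM (P21), 44.1 and 30.3 CPM (adult) and 193 and 103 CPM (aged) (log2 fold change 1.96 ± 0.24, adjusted p = 7.22e-07). Cacng5, a subunit that accompanies AMPA receptors, was at 27.4 and 39.6 CPM (P21), 15.4 and 13.6 CPM (adult) and 78.8 and 52.1 CPM (aged) (log2 fold change 2.13 ± 0.29, adjusted p = 3.36e-06). Necab2, a calcium-binding protein, was at 208 and 129.6 CPM in the aged sections against 75 and 44.9 CPM in the adult sections (log2 fold change 1.48 ± 0.21, adjusted p = 8.3e-06), and the neurotrophin gene Ntf3 at 38.3 and 25.8 CPM against 8.82 and 9.4 CPM (log2 fold change 1.76 ± 0.36, adjusted p = 0.001). Cpne4, a calcium-dependent membrane-binding protein, was at 161 and 92.2 CPM against 41.9 and 37.6 CPM (log2 fold change 1.63 ± 0.23, adjusted p = 7.06e-06). Much of the Amigo2 and Cacng5 counts lay in few spots, in the aged and in the adult sections alike. A single spot held 27.9% and 50.0% of the Amigo2 UMIs of the aged CA1 spots and 37.5% and 72.4% of those of the adult spots, and 41.1% and 46.9%, and 28.6% and 61.5%, of the Cacng5 UMIs. Without that spot Amigo2 was at 151.9 and 56.1 CPM in the aged and 28.9 and 8.76 CPM in the adult sections. The count fell to 0 with the top 0.5% of spots, where the log2 fold change was 0.52 for Amigo2, 0.59 for Cacng5, 0.52 for Necab2 and 0.30 for Cpne4, and that of Rgs14 turned to −0.06. It was also 0 with spots chosen by Gpr161 and Mpped1, which gave 1.72 for Amigo2 and 0.27 for Cacng5. Without adult section 2 the adjusted p was 0.218 for Rgs14 and 0.0876 for Map3k15. The part of CA2 tissue in these values was not tested apart from these choices of spots.

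Synaptic genes changed in both directions. Cnih2 (chr19:5092868-5098521) and Cnih3, auxiliary subunits of AMPA receptors that slow their closing, moved in opposite directions. Cnih2 was at 352 and 347 CPM (P21), 321 and 322 CPM (adult) and 614 and 538 CPM (aged) (log2 fold change 0.84 ± 0.12, adjusted p = 4.69e-06), and Cnih3 was at 52.5 and 54.5 CPM (P21), 57.4 and 50.1 CPM (adult) and 20.6 and 16.6 CPM (aged) (log2 fold change −1.55 ± 0.24, adjusted p = 3.32e-05). Of 14 genes of the AMPA receptor list tested, in which Cacng5 was not placed, these and Nptx1, a pentraxin, were called, Nptx1 at 89.1 and 160.5 CPM against 214 and 231 CPM (log2 fold change −0.79 ± 0.17, adjusted p = 0.00159). Camk2a, the alpha subunit of the kinase that drives long-term potentiation, was at 1916 and 2016 CPM in the aged sections against 1167 and 1060 CPM in the adult sections (log2 fold change 0.82 ± 0.10, adjusted p = 5.53e-07), and Shank1, a postsynaptic scaffold, was at 225 and 268 CPM against 114 and 88.8 CPM (log2 fold change 1.30 ± 0.15, adjusted p = 3.29e-07). Syt1, the calcium sensor of release, was at 608 and 388 CPM against 298 and 276 CPM (log2 fold change 0.79 ± 0.15, adjusted p = 3.82e-04) and Cplx2, complexin, at 356 and 331 CPM against 213 and 229.8 CPM (log2 fold change 0.63 ± 0.13, adjusted p = 0.00122). The synaptic vesicle and release list had 2 genes called higher and 1 lower. Gabrd, 1 of 2 GABA-A receptor subunits called lower, fell (log2 fold change −1.13 ± 0.25, adjusted p = 0.00264). With the top 0.5% of spots Syt1 (0.49) and Cplx2 (0.51) were not called. Cplx2 was also not called with spots chosen by Fibcd1 and Spink8 (0.56), by Gpr161 and Mpped1 (0.36), or touching at least 2 others (0.55). Without aged section 1 the log2 fold changes of Nptx1 (−0.47), Syt1 (0.44) and Cplx2 (0.58) were under the fold threshold, and without adult section 2 the adjusted p of Gabrd was 0.0882.

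Interneuron genes rose in aged spots for 3 of 14 tested, with a median log2 fold change of 0.45. Gad1 and Gad2, which make GABA, were at 72.2 and 52.6 CPM against 15.4 and 26.1 CPM (log2 fold change 1.55 ± 0.26, adjusted p = 1.11e-04) and 295 and 164 CPM against 143 and 96.1 CPM (log2 fold change 0.92 ± 0.19, adjusted p = 0.00153), and Cnr1, the cannabinoid receptor of a class of interneurons, at 427 and 325 CPM against 240.5 and 220.4 CPM (log2 fold change 0.70 ± 0.13, adjusted p = 5.34e-04). The count was 1 without aged section 1, where Gad2 (0.46) and Cnr1 (0.50) missed the fold threshold, and 7 without aged section 2. The call of Gad2 was also lost without adult section 2 (0.65, adjusted p = 0.103). Slc17a6, a vesicular glutamate transporter of thalamic neurons, was at 3.68 and 1.84 CPM against 13.2 and 11.5 CPM (log2 fold change −2.22 ± 0.55, adjusted p = 0.00683), with an adjusted p of 0.0761 without adult section 1 and 0.0712 without aged section 2.

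Some genes of axon and neurite growth were lower in aged spots. Gap43 (chr16:42248442-42340651), a membrane protein of growing axon endings, was at 317 and 348 CPM (P21), 271 and 340.5 CPM (adult) and 139 and 95 CPM (aged) (log2 fold change −1.41 ± 0.15, adjusted p = 8.05e-08), whereas in the rest of the sections it was at 839.9 and 739 CPM in the aged sections and 645 and 744 CPM in the adult sections. Of 11 axon growth and Nogo receptor genes tested 4 fell (Gap43, the myelin gene Mag, Ntng1 and Ntng2) and none rose. Ntng2, netrin-G2, was at 16.9 and 28.6 CPM in the aged sections against 57.4 and 62.7 CPM in the adult sections (log2 fold change −1.33 ± 0.24, adjusted p = 2.31e-04). Of 17 immature neuron genes, 4 fell (Nrep, Ncam1, Stmn2 and Dpysl3) and 1 rose (Cd24a). Nrep, a neuronal regeneration protein, was at 109 and 97.4 CPM (P21), 57.4 and 48 CPM (adult) and 7.37 and 11.1 CPM (aged) (log2 fold change −2.44 ± 0.27, adjusted p = 1.06e-07) and Stmn2, a microtubule regulator of growth cones, was at 453 and 406 CPM in the aged sections against 737 and 758 CPM in the adult sections (log2 fold change −0.80 ± 0.11, adjusted p = 4.56e-06). Ncam1, the neural cell adhesion molecule, was at 109 and 112 CPM against 233 and 204 CPM (log2 fold change −0.97 ± 0.14, adjusted p = 1.04e-05). Among 27 guidance genes, Nrp1, a receptor for class 3 semaphorins, rose (log2 fold change 1.01 ± 0.20, adjusted p = 8.13e-04) and Plxnd1 (log2 fold change −1.18 ± 0.26, adjusted p = 0.00201), Slit2 (log2 fold change −2.12 ± 0.65, adjusted p = 0.0298) and Unc5d (log2 fold change −1.39 ± 0.47, adjusted p = 0.0464) fell. Without adult section 1 the calls of Plxnd1 (−0.64, adjusted p = 0.266), Slit2 (−1.84, adjusted p = 0.232), Unc5d (−1.59, adjusted p = 0.103), Ntng1 (−1.15, adjusted p = 0.322), Dpysl3 (−0.78, adjusted p = 0.102) and Cd24a (1.41, adjusted p = 0.0749) were lost, and that of Unc5d was lost on leaving out any single section other than aged section 1 (−0.83, adjusted p = 0.346 without aged section 2).

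Astrocyte and complement genes were among those called in aged spots. Gfap (chr11:102887336-102900912), the intermediate filament of astrocytes, was at 107 and 84.2 CPM (P21), 77.2 and 100.3 CPM (adult) and 304 and 458 CPM (aged) (log2 fold change 2.11 ± 0.17, adjusted p = 3.55e-10), and both aged sections exceeded every other section. Of 5 reactive astrocyte genes tested 3 rose (Gfap, Vim and Serpina3n). Serpina3n was at 102 and 119.9 CPM against 47.4 and 70.0 CPM (log2 fold change 0.93 ± 0.18, adjusted p = 7.67e-04) and Vim, vimentin, at 23.6 and 36.4 CPM against 13.2 and 5.22 CPM (log2 fold change 1.75 ± 0.38, adjusted p = 0.00196). C4b was at 5.33 and 0 CPM (P21), 15.4 and 17.8 CPM (adult) and 102 and 124 CPM (aged) (log2 fold change 2.78 ± 0.25, adjusted p = 2.89e-09), and 3 genes of the C1q complex made by microglia rose with it, C1qa at 86.9 and 104 CPM against 51.9 and 44.9 CPM (log2 fold change 1.0 ± 0.19, adjusted p = 4.16e-04), C1qb at 63.3 and 69.2 CPM against 33.1 and 23 CPM (log2 fold change 1.25 ± 0.22, adjusted p = 2.28e-04) and C1qc at 72.2 and 89 CPM against 44.1 and 36.6 CPM (log2 fold change 1.02 ± 0.20, adjusted p = 7.19e-04), so that 4 of 6 complement genes tested were higher. With spots chosen by Gpr161 and Mpped1 alone, C4b kept its call and C1qa (0.65), C1qb (0.80) and C1qc (0.51) were no longer called, nor was C1qc with the top 0.5% of spots (0.72). Apoe was at 552 and 645 CPM against 296 and 237 CPM (log2 fold change 1.18 ± 0.14, adjusted p = 2.84e-07). Mlc1, a membrane protein of astrocyte endfeet, rose (log2 fold change 0.85 ± 0.17, adjusted p = 0.00112) and Gja1, connexin 43, fell (log2 fold change −0.65 ± 0.16, adjusted p = 0.00721). Without adult section 2 the calls of Vim (1.21, adjusted p = 0.112), Mlc1 (0.77, adjusted p = 0.0553) and Gja1 (−0.50, adjusted p = 0.191) were lost, and without adult section 1 that of Serpina3n (0.68, adjusted p = 0.0764).

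Microglial and interferon genes were less firm. Of 8 homeostatic microglia genes tested, 3 rose (among them Cx3cr1 and Csf1r), and Trem2, Ctsd and Apoe rose and Lpl fell among 9 reactive microglia genes. Lpl, a lipase that is also expressed by pyramidal neurons, was at 136 and 135 CPM (P21), 152 and 124 CPM (adult) and 52.3 and 42.9 CPM (aged) (log2 fold change −1.55 ± 0.17, adjusted p = 1e-07), compared with 17.2 to 23.5 CPM in the rest of the sections. Trem2, a receptor for lipids, was at 14.7 and 18.4 CPM against 6.62 and 4.18 CPM (log2 fold change 1.64 ± 0.46, adjusted p = 0.0175). With spots chosen by Gpr161 and Mpped1 no homeostatic microglia gene was called, with 0.69 for Cx3cr1 and 0.55 for Csf1r. Trem2 (0.68) and Ctsd (0.30) were not called there either. Cx3cr1 also lost its call with the top 0.5% (0.87) and top 2% (0.52) of spots and with spots chosen by Fibcd1 and Spink8 (0.77). The adjusted p without adult section 2 was 0.17 for Cx3cr1, 0.28 for Csf1r, 0.224 for Trem2 and 0.135 for Ctsd. Irf9, Ifitm3 and Bst2 rose among 5 interferon-induced genes tested, Irf9 at 16.2 and 19.4 CPM against 3.31 and 4.18 CPM (log2 fold change 2.24 ± 0.50, adjusted p = 0.00259) and Bst2 at 8.1 and 23.1 CPM against 9.93 and 0 CPM (log2 fold change 1.78 ± 0.61, adjusted p = 0.0498), where aged section 1 lay below adult section 1. H2-D1, a class I antigen gene with close relatives, was at 22.1 and 51.7 CPM against 15.4 and 10.4 CPM (log2 fold change 1.59 ± 0.38, adjusted p = 0.00462). The count of interferon-induced genes ran from 1 to 7 with 1 section left out, as the set tested changed, and was 0 with the top 0.5% of spots and with DESeq2. The adjusted p without adult section 2 was 0.157 for Ifitm3, 0.537 for Bst2 and 0.0945 for H2-D1, and without adult section 1 it was 0.0527 for Irf9.

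Myelin genes, which were higher at P21, were lower in aged spots. Of the 12 mature oligodendrocyte genes 9 fell and 1 rose (Apod), with a median log2 fold change of −0.83, and leaving out any section gave 7 to 10 that fell. Mbp fell by 0.76 on the log2 scale (log2 fold change −0.76 ± 0.11, adjusted p = 9.77e-06). Cnp, an enzyme of the inner myelin layer, was at 117 and 90.9 CPM against 250.4 and 255 CPM (log2 fold change −1.30 ± 0.15, adjusted p = 2.52e-07), and Mog, on the outer surface of myelin, at 25.8 and 21.2 CPM against 67.3 and 50.1 CPM (log2 fold change −1.34 ± 0.24, adjusted p = 2.62e-04). Opalin, a glycoprotein of the same cells, was at 88.3 and 74.3 CPM (P21), 59.6 and 36.6 CPM (adult) and 4.42 and 8.76 CPM (aged) (log2 fold change −2.74 ± 0.32, adjusted p = 2.84e-07). Tspan2 (log2 fold change −1.20 ± 0.21, adjusted p = 1.31e-04) and Tmem163, a zinc transporter (log2 fold change −2.43 ± 0.43, adjusted p = 1.85e-04), also fell. Apod, apolipoprotein D, was at 173 and 235 CPM against 146 and 104 CPM (log2 fold change 0.73 ± 0.17, adjusted p = 0.00504), a call that was lost without adult section 2 (0.49, adjusted p = 0.204).

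**Figure D3:**
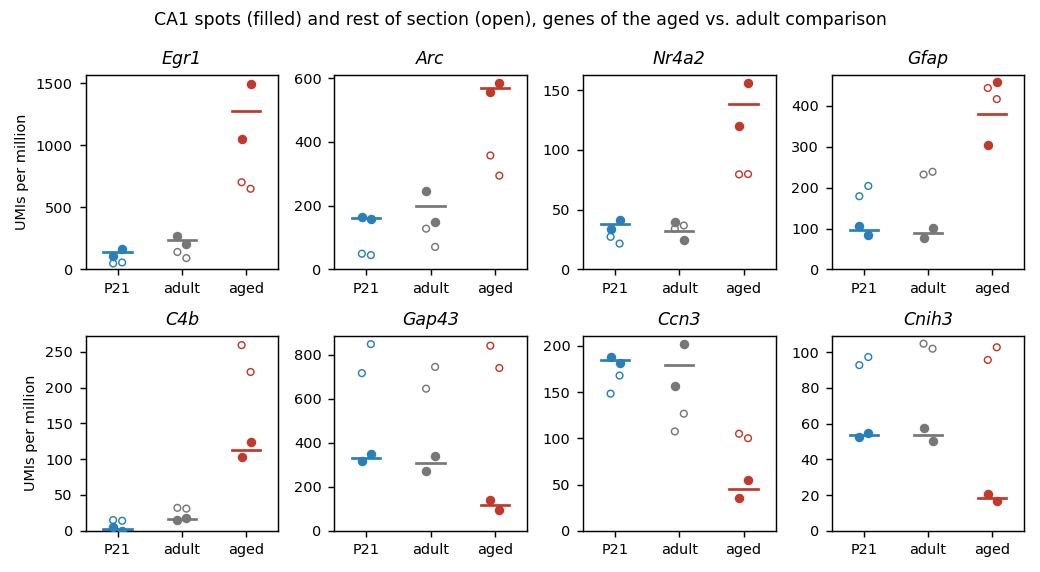
Level of genes of the aged vs. adult comparison in CPM (vertical axis, from 0) by age (horizontal axis). Filled points are the CA1 spots of each section with a line at the mean of 2, and open points are the rest of the same section, which shared the rise of Egr1 and Arc while Gap43 and Ccn3 changed less there than in CA1 spots.

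Chaperone and stress-hormone genes gave few calls. Dnaja1, a co-chaperone, was at 359 and 345 CPM against 212 and 212 CPM (log2 fold change 0.73 ± 0.12, adjusted p = 9.93e-05) and Hspa5 at 448 and 327 CPM against 203 and 248 CPM (log2 fold change 0.77 ± 0.14, adjusted p = 3.03e-04), 2 of 9 heat shock genes tested. Fkbp5 and Sgk1, targets of the glucocorticoid receptor, rose (0.66 ± 0.18 and 0.79 ± 0.24, adjusted p = 0.0132 and 0.0261) among 8 genes of that list. Without aged section 1 Hspa5 missed the fold threshold (0.54), and the adjusted p without adult section 1 was 0.208 for Fkbp5 and without adult section 2 0.328 for Sgk1. No gene was called among 6 NMDA receptor subunits, 24 potassium channel genes, 3 HCN channel genes, 12 calcium-binding protein genes or 21 respiratory chain genes, with medians of −0.14, 0.01, −0.21, 0.11 and 0.10. Among sodium channel genes 1 was called lower, and among calcium channel genes 1 was called higher. Of the splicing factors, 1 was called higher and 1 lower.

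**Figure D4:**
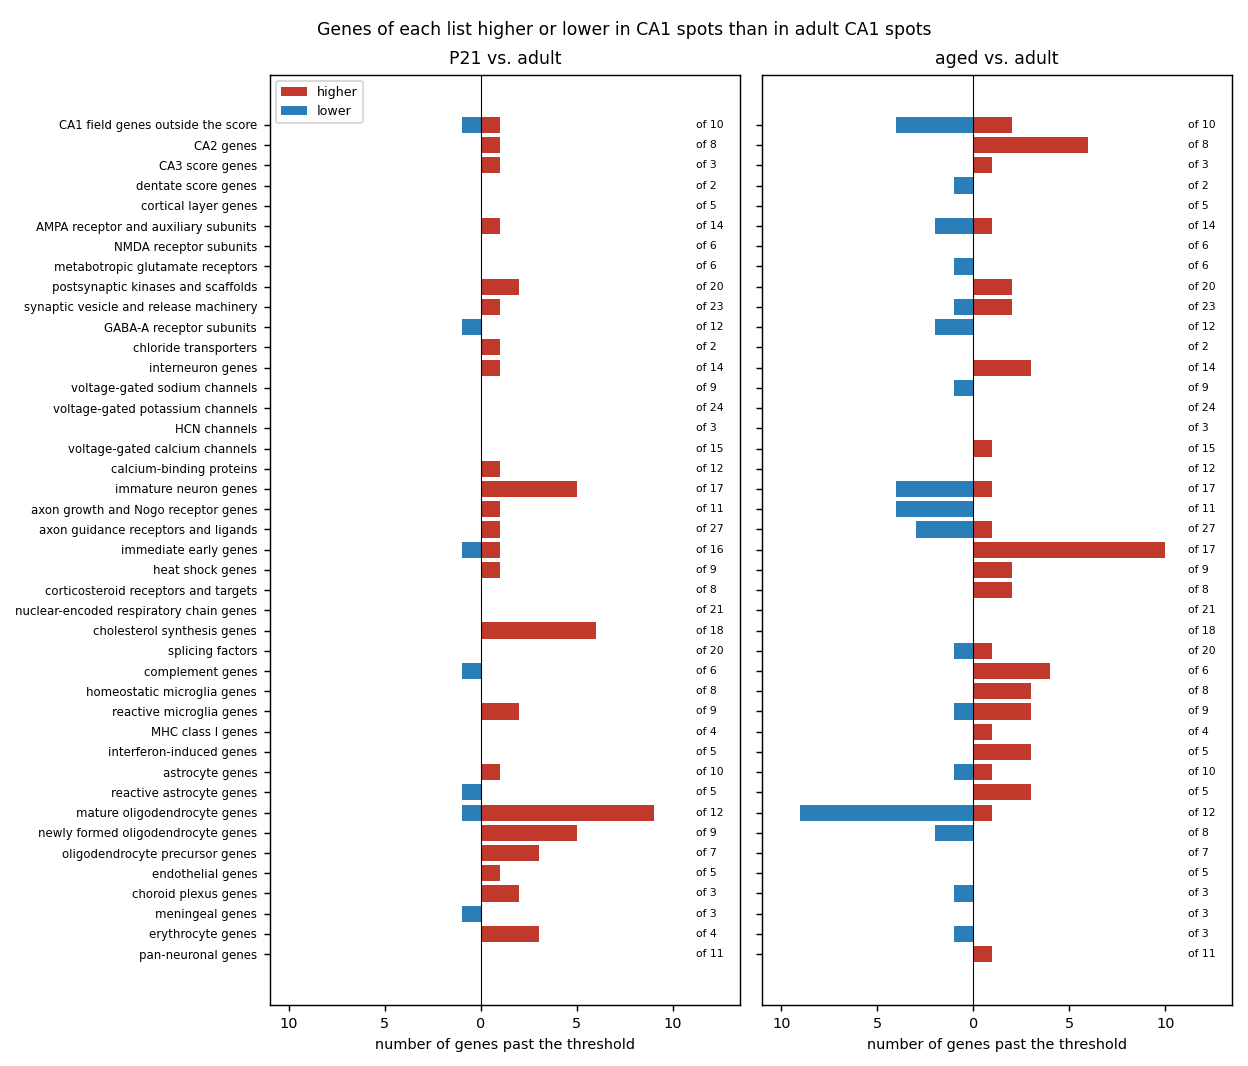
Members of each gene list that were called in CA1 spots, P21 vs. adult and aged vs. adult. The horizontal axis gives the number of genes, higher to the right (red) and lower to the left of 0 (blue), the number tested stands at the right, and mature oligodendrocyte genes point right at P21 (9 of 12) and left in aged sections (9 of 12), where 10 of 17 immediate early genes point right.

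The 10 genes with the largest rise in aged CA1 spots were Slc17a8, Egr2, Angpt1, C4b, Dcdc2a, Sik1, Fosl2, Egr1, Itgam and Alkal2, and several rest on few UMIs. Slc17a8, which encodes the vesicular glutamate transporter VGLUT3, had 31 and 28 UMIs in the aged and 0 and 0 in the adult CA1 spots. With a floor of 3 UMIs for each adult section it was at least 5.54-fold higher. Egr2 had a ratio of 10.54 (95% counting interval 2.73 to 90.0), Angpt1, a vessel-stabilizing ligand, of 9.22 (2.37 to 79.1) and Dcdc2a of 7.03 (2.24 to 35.5). Itgam, an integrin of microglia, was at 9.57 and 13.8 CPM against 3.31 and 1.04 CPM (log2 fold change 2.44 ± 0.65, adjusted p = 0.0124) and Alkal2, a receptor tyrosine kinase ligand, at 29.5 and 12.4 CPM against 4.41 and 3.13 CPM (log2 fold change 2.36 ± 0.55, adjusted p = 0.00365). Without adult section 2 the adjusted p of Angpt1 was 0.141, of Dcdc2a 0.175, of Itgam 0.226 and of Alkal2 0.0764.

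Among the 10 with the largest fall were Cntnap2, Pmch, Pamr1, Grm2, Cpne9, Cobl, Opalin, Cntn6 and Creb5. Cntnap2, a neurexin-like adhesion protein that clusters potassium channels along axons, had 27 and 31 UMIs in the adult and 1 and 1 in the aged CA1 spots, a ratio of 55.04 (14.6 to 465.3). In the rest of the sections it was at 0.632 and 0.457 CPM in the aged sections and 20.8 and 24.4 CPM in the adult sections, and the part of the probe design in this fall was not tested. Grm2, a presynaptic glutamate receptor, had 8 and 8 UMIs in adults and 1 and 1 in aged spots (ratio 15.2, 3.57 to 136.1), while the rest held 33.1 and 37.3 CPM in the aged sections and 42.8 and 37.8 CPM in the adult sections. Pmch had 2 and 14 UMIs in adults and 0 and 1 in aged spots, and Pamr1 6 and 5 and 0 and 1. Cobl, an actin nucleator, was at 5.16 and 1.38 CPM against 22.1 and 17.8 CPM (log2 fold change −2.75 ± 0.50, adjusted p = 2.62e-04), and Cpne9 at 1.47 and 2.31 CPM against 22.1 and 8.36 CPM (log2 fold change −2.86 ± 0.58, adjusted p = 9.97e-04). The adjusted p of Pmch was 0.434 without adult section 2. Without adult section 1 it was 0.0896 for Pamr1, 0.155 for Cpne9, 0.0871 for Cntn6 and 0.324 for Creb5. Ttr was at 47.1 and 21.7 CPM against 204 and 109 CPM in CA1 spots (log2 fold change −2.27 ± 0.29, adjusted p = 1.84e-06) and far higher in the rest, with 2710 and 1906 CPM in the aged sections and 3249 and 1501 CPM in the adult sections.

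Genes of adjoining fields were also counted. Grik4, a kainate receptor subunit that was used to choose the CA3 spots, was at 32 and 42.9 CPM (P21), 17.6 and 15.7 CPM (adult) and 39.8 and 30.0 CPM (aged) in CA1 spots, called higher at P21 (log2 fold change 1.11 ± 0.32, adjusted p = 0.0466) and in aged sections (log2 fold change 1.04 ± 0.30, adjusted p = 0.0185), and C1ql2, used to choose the dentate spots, was lower in aged sections (log2 fold change −1.61 ± 0.54, adjusted p = 0.0465). Neither held when sections were left out in turn. The adjusted p without adult section 2 was 0.329 and 0.171 for Grik4, and that of C1ql2 was 0.394 without adult section 1. The direction of Grik4 also turned with the choice of spots, to −0.07 at P21 with the top 2%, and in aged to −0.43 with the top 0.5% and −0.92 with spots chosen by Gpr161 and Mpped1. Id1, called higher at both P21 and aged (log2 fold change 2.13 ± 0.53, adjusted p = 0.00671), had an adjusted p of 0.0705 without adult section 1 in aged vs. adult.

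Whether a change was particular to CA1 was tested by the area-by-age term of a model with section as a block, which removes a factor that acts by the same ratio on all spots of a section. Whether the slide version acts alike on all areas was not tested. Against 203 CA3 spots, chosen in the same way by Bok, Iyd, Cdh24 and Grik4, no gene was called in 10396 tested for P21 or 10357 for aged (0%). At an unadjusted p below 0.05 there were 469 and 575 genes, and DESeq2 called 0 and 0. The genes with the smallest p were Ccn3 (−1.46 ± 0.30, adjusted p = 0.88), 6330403K07Rik, Tmem255a, Aldh1a1 and Col25a1 at P21, and Cacng5 (2.58 ± 0.41, adjusted p = 0.0548), Necab2 (1.97 ± 0.34, adjusted p = 0.0665), Vxn, Ntng2 (−1.46 ± 0.28, adjusted p = 0.0665) and Kcnh7 in aged. The CA3 spots were scattered, with 12, 7, 5, 11, 15 and 14 of them touching another in the 6 sections, so they do not form a layer. Against 204 dentate spots, chosen by Prox1, C1ql2, Dsp and Tdo2, of which 28, 23, 22, 28, 30 and 32 touched another, the change was higher in CA1 for 79 of 10584 genes (0.746%) and lower for 58 (0.548%) at P21, together 1.29%, and without TMM factors for 60 and 74. In aged it was higher for 15 of 10576 (0.142%) and lower for 25 (0.236%), together 0.378%. DESeq2 called 2 at P21 and 0 in aged.

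In P21 vs. adult, the change in CA1 minus that in the dentate spots was positive for Rasl10a, a small GTPase (1.47 ± 0.18, adjusted p = 1.27e-04), Marcksl1 (1.76 ± 0.22, adjusted p = 1.27e-04), Nptx1 (1.04 ± 0.15, adjusted p = 0.00178), Jun (1.94 ± 0.30, adjusted p = 0.00189) and Sema5a (2.28 ± 0.42, adjusted p = 0.00465). It was negative for Gap43 (−1.38 ± 0.21, adjusted p = 0.00189), Man1a (−2.13 ± 0.35, adjusted p = 0.0021) and Ccn3 (−1.98 ± 0.39, adjusted p = 0.00915). Gap43 in the dentate spots was at 208 and 285 CPM at P21 and 99 and 68.8 CPM in adults, while CA1 spots held 317 and 348 CPM at P21 against 271 and 340.5 CPM in adults. Nptx1 in the dentate spots was at 381 and 384 CPM at P21 and 729 and 735 CPM in adults, and CA1 spots held 226 and 239 CPM against 214 and 231 CPM. Rasl10a was at 169 and 205 CPM at P21 and 395 and 409.8 CPM in adults in the dentate spots and 122 and 165 CPM at P21 against 107 and 120.1 CPM in adults in CA1 spots, and Ccn3 at 31.5 and 59 CPM at P21 and 10.0 and 9.95 CPM in adults and 188 and 182 CPM at P21 against 157 and 203 CPM in adults. For these 4 genes the levels of the ages differed by a larger factor in the dentate spots than in the CA1 spots. The count was 0 without adult section 2, where the adjusted p was 0.111 for Rasl10a, 0.143 for Marcksl1, 0.237 for Nptx1, 0.314 for Jun, 0.314 for Sema5a, 0.365 for Gap43, 0.365 for Man1a and 0.559 for Ccn3. There were 6 calls without P21 section 1, 10 without P21 section 2, 7 without adult section 1 and 381 and 379 without aged section 1 and 2.

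In aged vs. adult, the change in CA1 minus that in the dentate spots was positive for Fosl2 (2.90 ± 0.45, adjusted p = 0.00576), Stum (0.83 ± 0.14, adjusted p = 0.0104), Cacng5 (2.51 ± 0.47, adjusted p = 0.0218) and Ntf3 (2.32 ± 0.42, adjusted p = 0.0186), and negative for Ttr (−4.83 ± 0.74, adjusted p = 0.00576), C1ql3, a secreted synaptic protein (−1.17 ± 0.19, adjusted p = 0.00852), Lmo4, a transcriptional cofactor (−0.98 ± 0.16, adjusted p = 0.00852), Gap43 (−1.08 ± 0.23, adjusted p = 0.0365), Lpl (−1.56 ± 0.35, adjusted p = 0.0447) and Mbp (−0.80 ± 0.17, adjusted p = 0.0304). Mbp in the dentate spots was at 1375 and 796 CPM in the aged sections and 1104 and 889 CPM in the adult sections, and its difference was −0.44, under the fold threshold, without aged section 1. The count was 0 without adult section 1 and 0 without adult section 2, 9 without either P21 section, 72 without aged section 1 and 260 without aged section 2. For Ttr the difference was 0.03 without aged section 1, so it rested on that section. The dentate spots held 2715 and 17.1 CPM in the aged sections and 178 and 73.3 CPM in the adult sections. With the top 0.5% of spots the differences of Cacng5 (0.74), Ntf3 (1.2), Lpl (−0.79), C1ql3 (−1.04), Lmo4 (−0.71) and Gap43 (−1.23) were not called. Those of Cacng5 (0.60), Ntf3 (1.77) and Gap43 (−0.65) were not called with spots chosen by Gpr161 and Mpped1. Nor were those of Gap43 (−0.54) and Mbp (−0.62) with the top 2%. The adjusted p without adult section 1 was 0.0951 for Fosl2, 0.109 for Gap43, 0.611 for Cacng5, 0.604 for Mbp and 0.614 for Lpl, and without adult section 2 it was 0.853 for C1ql3, 0.553 for Lmo4, 0.553 for Stum and 0.553 for Ntf3.

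Against the rest of the section, the change was higher in CA1 for 137 of 11415 genes (1.2%) and lower for 33 (0.289%) at P21, together 1.49%. In aged it was higher for 153 of 11734 (1.3%) and lower for 128 (1.09%), together 2.39%, and without TMM factors for 121 and 161. On the same sums DESeq2 called 21 at P21 and 66 in aged, and limma-voom 0 and 2. Without the aged sections, the P21 count was 207 and 210, and without P21 section 1, adult section 1 and adult section 2 it was 39, 101 and 53. The aged count was 182 without adult section 1 and 119 without adult section 2. At P21, Man1a had a difference of −1.55 ± 0.14, adjusted p = 2.48e-26, as it was lower in CA1 spots at P21 but higher elsewhere, with 86.2 and 84.4 CPM at P21 and 49.4 and 48.5 CPM in adults. The difference was positive for Wfs1 (0.85 ± 0.11, adjusted p = 1.37e-10) and for Gm2115 (0.99 ± 0.12, adjusted p = 1.56e-12), which was not called in CA1 spots themselves and stood at 27.6 and 24.7 CPM at P21 and 40.4 and 44 CPM in adults in the rest, and 6330403K07Rik, at 168 and 182 CPM at P21 against 400.4 and 360.4 CPM in adults in CA1 spots, was lower in CA1 at P21 (−1.27 ± 0.13, adjusted p = 1.23e-17). Pcp4 (0.82 ± 0.13, adjusted p = 3.86e-07), Nptx2 (1.13 ± 0.28, adjusted p = 0.00652), Sema5a (1.75 ± 0.40, adjusted p = 0.00179) and Mbp (0.59 ± 0.11, adjusted p = 5.15e-05) rose more in CA1, and Ttr differed by 1.65 ± 0.14, adjusted p = 2.2e-28. Mbp lost the call without P21 section 1 (0.31), Sema5a without P21 section 1 (1.25), Pcp4 without adult section 2 (0.49, adjusted p = 0.185) and Nptx2 without adult section 2 (1.06, adjusted p = 0.163). With the top 0.5% of spots Nptx2 (0.89), Pcp4 (0.43) and Mbp (0.47) were not called, nor were Nptx2 (0.81) and Sema5a (0.71) with spots chosen by Gpr161 and Mpped1. Cort, the neuropeptide cortistatin, differed by −3.04 ± 0.41, adjusted p = 1.37e-10, but by −0.02 without adult section 1, where 45.9% of 85 UMIs lay in 1 spot.

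In aged vs. adult, the change in CA1 minus that in the rest was negative for Gap43 (−1.55 ± 0.13, adjusted p = 2.28e-27), Ccn3 (−1.69 ± 0.16, adjusted p = 6.05e-23), Wfs1 (−0.85 ± 0.12, adjusted p = 3.42e-10), Lpl (−1.25 ± 0.19, adjusted p = 4.29e-08) and Cnih3 (−1.46 ± 0.24, adjusted p = 3.4e-07), and positive for Gfap (1.28 ± 0.14, adjusted p = 1.96e-15). Ccn3 and Wfs1 were also lower in the aged CA3 spots, against which no gene was called. Ccn3 was there at 7.41 and 8.29 CPM in the aged sections and 26.8 and 31.8 CPM in the adult sections. Wfs1 was there at 19.3 and 29.6 CPM in the aged sections and 51.9 and 65.2 CPM in the adult sections. In the rest of the sections Gfap was at 444 and 416 CPM in the aged sections and 232 and 239 CPM in the adult sections and Cnih3 at 95.6 and 103 CPM in the aged sections and 105 and 102 CPM in the adult sections. Serpina3n rose less in CA1 than elsewhere (−1.76 ± 0.21, adjusted p = 6.13e-14), where it was at 63.6 and 58 CPM in the aged sections and 8.56 and 9.47 CPM in the adult sections. The CA2 genes Cacng5 (2.37 ± 0.27, adjusted p = 7.1e-15), Ntf3 (2.20 ± 0.45, adjusted p = 2.00e-04), Amigo2 (1.14 ± 0.20, adjusted p = 8e-06) and Necab2 (1.20 ± 0.16, adjusted p = 2.65e-10), Cpne4 (1.65 ± 0.18, adjusted p = 1.07e-15) and Nr4a2 (1.0 ± 0.21, adjusted p = 2.43e-04) rose more in CA1 spots, and Ttr differed by −2.19 ± 0.18, adjusted p = 1.68e-30. The calls of Amigo2 (0.56, adjusted p = 0.433), Necab2 (0.64, adjusted p = 0.141) and Nr4a2 (0.63, adjusted p = 0.331) were lost without adult section 2, and Wfs1 (−0.38) missed the fold threshold without aged section 1. With the top 0.5% of spots the differences of Cacng5 (0.81), Ntf3 (1.22), Amigo2 (−0.35), Necab2 (0.23) and Cpne4 (0.32) were no longer called. The same 5 were lost with spots chosen by Gpr161 and Mpped1 (0.42, 1.55, 0.84, 0.26 and 0.25), as were Wfs1 (−0.33) and Gfap (0.56). Mbp was lower in both areas, with a difference of −0.08 ± 0.11, adjusted p = 0.833.

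**Figure D5:**
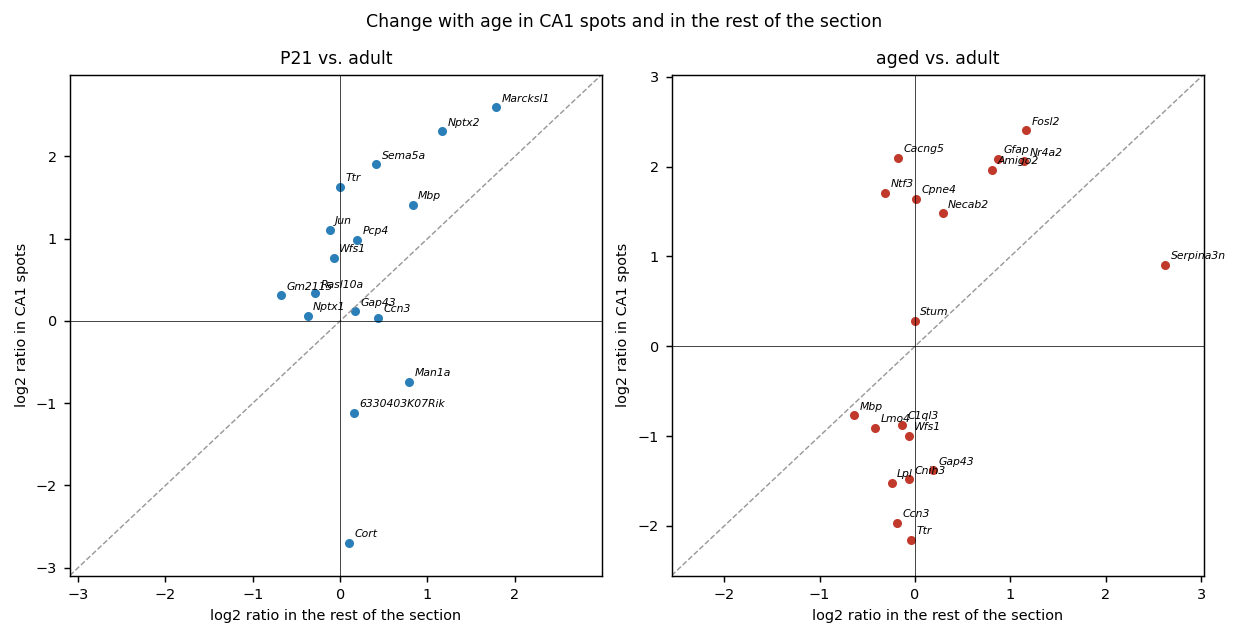
Log2 ratio in CA1 spots (vertical axis) against that in the rest of the section (horizontal axis), P21 vs. adult and aged vs. adult. Each point is a gene named in the area comparisons, placed by log2 ratios of mean CPM, and the dashed diagonal marks equal change, which Gap43 and Ccn3 lie below and Cacng5 and Ntf3 above in aged vs. adult.

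Of the genes called in both comparisons, 18 were higher at P21 and in aged, 13 lower in both, 28 higher at P21 and lower in aged, and 4 lower at P21 and higher in aged. Both comparisons share the adult sections, so these counts are not independent. The 5 with the largest summed change were Pmch, C4b, Id1, Ttr and Tmem163. C4b was lower at P21 and higher in aged sections, at 5.33 and 0 CPM (P21), 15.4 and 17.8 CPM (adult) and 102 and 124 CPM (aged). Id1 was higher at both ages than in adults, at 16 and 14.9 CPM (P21), 3.31 and 3.13 CPM (adult) and 13.3 and 15.2 CPM (aged), but with spots chosen by Gpr161 and Mpped1 its log2 fold change was 0.30 at P21 and turned to −0.17 in aged. Tmem163 went from P21 down to aged, at 63.2 and 49.5 CPM (P21), 17.6 and 23 CPM (adult) and 4.42 and 3.23 CPM (aged), and Ttr likewise, at 652 and 322 CPM (P21), 204 and 109 CPM (adult) and 47.1 and 21.7 CPM (aged). Pmch, with 99 and 39.6 CPM (P21), 2.21 and 14.6 CPM (adult) and 0 and 0.461 CPM (aged), varied between sections of the same age in the rest, where it was at 519.8 and 4.38 CPM in the aged sections and 29.4 and 416 CPM in the adult sections. With spots chosen by Gpr161 and Mpped1 the aged log2 fold change of Pmch turned to 4.12. The aged call of Pmch was lost without adult section 2 (log2 fold change −2.60). The P21 calls of Pmch (2.20), Id1 (2.18) and Tmem163 (1.28) were lost without P21 section 1. The P21 call of C4b was lost without adult section 2 (−2.07).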

How the data were processed

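The authors deposited filtered UMI count matrices (spots by 19465 genes) of 6 Visium FFPE sections, made by Space Ranger 2.0.0 (P21, adult) or 3.1.1 (aged) per the file headers, and the build named in the submitters' processing notes is mm10. Counts are probe UMIs, not normalized. Spot images and tables of spatial enrichment were not used here.

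Spots with at least 500 UMIs were kept. Counts of the CA1, CA3 and dentate spots and of all other kept spots (the rest) were summed per section, since spots are not replicates. Genes passed filterByExpr and were detected in at least 10% of the CA1 spots of either age. Sums were fitted over all 6 sections with edgeR 4.0.16 (R 4.3.3, TMM, quasi-likelihood) and called where the fold change exceeded 1.5 with a Benjamini-Hochberg adjusted p below 0.05. Area-by-age terms had section as a block. CPM of the CA1 spots are scaled by TMM, and those of other areas are plain. Standard errors are those of the fitted coefficients, ratios of few counts have exact 95% counting intervals, and 0 was set to a floor of 3 UMIs per section. Intervals and floors cover counting error only. Alternatives included DESeq2 1.42.0 and limma 3.58.1. Scripts were tested on simulated data. Coordinates are GENCODE vM21 (GRCm38), and promoters are from RefSeq.

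The members, gene lists and tests were chosen with earlier results of these data known. Named genes are the 10 largest rises and falls of each CA1 comparison among called genes with no overlap between ages, the 5 smallest p of each area comparison, the leading list members, the 10 highest ratios to the rest and the 5 largest changes called in both comparisons. Some genes that these rules name are not reported here.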

Additional observations from a re-analysis of the deposited data

Results flagged for a closer look

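Genes whose change with age differed between CA1 spots and another area of the same sections, by the area-by-age term, are collected here as log2 differences (CA1 minus the other area). Against the CA3 spots this term called 0 genes at P21 and 0 in aged. Against the rest of the section limma-voom called 0 at P21 and 2 in aged. No group has the 4 sections that a check for outlying samples needs.

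For P21 vs. adult against the dentate spots, the differences were 1.47 for Rasl10a, 1.76 for Marcksl1, 1.04 for Nptx1, 1.94 for Jun, 2.28 for Sema5a, −1.38 for Gap43, −2.13 for Man1a and −1.98 for Ccn3, and none of these calls held without adult section 2. Against the rest of the section they were 1.65 for Ttr, 0.99 for Gm2115, 0.85 for Wfs1, 0.82 for Pcp4, 0.59 for Mbp, 1.13 for Nptx2, 1.75 for Sema5a, −1.55 for Man1a, −1.27 for 6330403K07Rik and −3.04 for Cort, the last resting on adult section 1.

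For aged vs. adult against the dentate spots, the differences were 2.90 for Fosl2, 0.83 for Stum, 2.51 for Cacng5, 2.32 for Ntf3, −4.83 for Ttr, −1.17 for C1ql3, −0.98 for Lmo4, −1.08 for Gap43, −1.56 for Lpl and −0.80 for Mbp, and none of these calls held without adult section 1 or without adult section 2. Against the rest of the section they were 1.65 for Cpne4, 1.28 for Gfap, 1.14 for Amigo2, 2.37 for Cacng5, 2.20 for Ntf3, 1.20 for Necab2, 1.0 for Nr4a2, −2.19 for Ttr, −1.55 for Gap43, −1.69 for Ccn3, −0.85 for Wfs1, −1.25 for Lpl, −1.46 for Cnih3 and −1.76 for Serpina3n. With the top 0.5% of spots the differences against the rest were 0.32 for Cpne4, 0.81 for Cacng5, 1.22 for Ntf3, 0.23 for Necab2 and −0.35 for Amigo2, none of them called.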

How the results depend on the processing

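Counts of called genes are given in the order CA1 P21, CA1 aged, CA1 minus dentate P21, CA1 minus dentate aged, CA1 minus rest P21 and CA1 minus rest aged, against 274, 840, 137, 40, 170 and 281. DESeq2 called 57, 240, 2, 0, 21 and 66, a test against a fold change of 1.5 (glmTreat) 38, 87, 7, 2, 5 and 28, and limma-voom 239, 779, 109, 19, 0 and 2. The top 0.5% of spots gave 111, 428, 29, 17, 54 and 114, spots chosen by Gpr161 and Mpped1 182, 543, 56, 20, 64 and 143, and sums thinned to the lowest total 197, 545, 164, 38, 98 and 134. The top 2% of spots gave 81 and 7 and spots touching at least 2 others 104 and 17 for the dentate comparisons. Leaving out 1 section gave 64 to 439, 373 to 1009, 0 to 381, 0 to 260, 39 to 210 and 119 to 311. Against CA3 spots every setting gave 0 at P21, and in aged the settings other than 0 gave 1 (thinned, top 0.5%, touching 2 or more), 12 (Gpr161 and Mpped1), 24 (top 2%) and 0 to 33 (1 section left out).

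With the replicate number as a block the counts were 327, 940, 125, 40, 172 and 290. The deviations of same-numbered sections correlated by 0.004 to 0.022, so the numbers do not pair the sections. Of 200 calls of named genes, the block kept 198, DESeq2 77, glmTreat 80 and limma-voom 158. Over all alternatives 3290 were kept, 819 lost and 8 reversed. The reversed log2 values were −0.071 for Grik4 at P21 (top 2%), and in aged sections −0.057 for Rgs14 (top 0.5%), −0.43 and −0.92 for Grik4 (top 0.5%, and Gpr161 and Mpped1), −0.17 for Id1 and 4.12 for Pmch (Gpr161 and Mpped1), 0.029 for Ttr against the dentate spots (without aged replicate 1, and −6.14 without aged replicate 2) and −0.35 for Amigo2 against the rest (top 0.5%). The cause was not tested. Restricting to comparison spots that touch another, chosen after seeing the data, gave 189 and 43 dentate calls.

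With 2 sections an age, 1 section often decides a call, and P21 section 2 is the shallowest. Aged sections differ from the others in slide version, in probe design, in the shape of the CA1 patch and in capture by CytAssist, which cannot be told apart from age. The score falls without a gap across its threshold.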
